A study of Arabidopsis thaliana with 16 samples.

Results

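Dry Arabidopsis thaliana seeds that carried the brm-3 allele were compared with and without a second mutation, dog1-4, to see which stored transcripts depended on DOG1 when BRM was already impaired. The 8 libraries, of 16 in the series, were chosen by their genotype labels, and every gene was included. The 4 brm-3 dog1-4 libraries came from seeds labelled as the double mutant, which was made by crossing, and the 4 brm-3 libraries from seeds with brm-3 alone. Both groups therefore carried brm-3, a T-DNA insertion line whose BRM protein lacks the bromodomain, which was used because the knockout brm-1 is sterile. Each allele was represented by 1 line. The other 8 libraries, 4 of dog1-4 and 4 of Col-0, the wild type that is not mutated at either gene, gave the change seen with the same dog1-4 allele without brm-3. Plants were grown on soil in a greenhouse under long days, and harvested seeds were kept in bags at room temperature. The labels do not say how long the seeds were stored, or whether the libraries of a genotype came from separate plants, so p-values measure only the spread between libraries, which may be technical.

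DOG1 (DELAY OF GERMINATION 1) is a central regulator of seed dormancy, the state in which a viable seed does not germinate under favorable conditions. It acts together with abscisic acid (ABA), in part by binding protein phosphatases of clade A such as AHG1, which restrain ABA responses. BRM (BRAHMA) is an ATPase of the SWI/SNF chromatin remodeling complex, which moves nucleosomes and so changes the access of other factors to DNA. Dry seeds keep messenger RNA made during maturation. Among it are transcripts for storage proteins, for oleosins that coat oil bodies, and for late embryogenesis abundant (LEA) proteins that protect cells from drying.

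Loss of DOG1 in the brm-3 background gave 1204 genes with a significant change that was estimated at more than 2-fold. The size of the change was not part of that test. When tested against a log2 fold change of 1, 395 genes passed (205 higher and 190 lower). In 3′RNA-Seq, complementary DNA is primed at the poly(A) tail, so that counts come from the 3′ end of a transcript. Levels are given as CPM, a count relative to the library total after scaling by the trimmed mean of M-values (TMM). Total counts ran from 977878 to 2359673 (median 1873093) in brm-3 dog1-4 and from 1627347 to 2031600 (median 1867084) in brm-3, and 10251 genes had enough counts to be tested. A level of 3 counts, used as the floor of detection, was between 0.964 and 2.63 CPM, and such limits cover counting error only. The 12 pairs of libraries within the 2 genotypes differed beyond counting noise, with a chi-square of 1.604 to 3.86 for each degree of freedom. Each library was treated as a replicate, but this spread does not show that the libraries came from separate plants. Transcripts that define dry seeds were abundant in all 8 libraries: the 11 markers, which included cruciferins, oleosins and EM genes, summed to between 73160 and 97939 CPM in brm-3 dog1-4 and between 103446 and 133358 CPM in brm-3. Of the 3 seed coat markers, BAN and TT10 had at most 1 count in any of the 8 libraries, and MUM4 had 8, 10, 2 and 13 counts in brm-3 dog1-4, against 5, 4, 4 and 8 counts in brm-3. Of the 4 leaf or seedling markers, CAB1 and CAB2 had at most 2 counts in any of the 8 libraries, while the sum of all 4 ran from 64.8 to 115 CPM in brm-3 dog1-4 and from 26.7 to 32.9 CPM in brm-3. The 3 endosperm markers, almost entirely EPR1, summed to between 19827 and 24187 CPM in brm-3 dog1-4 and between 19597 and 24080 CPM in brm-3, and the 3 pollen markers to between 13.0 and 21.5 CPM in brm-3 dog1-4 and between 17.3 and 30.0 CPM in brm-3.

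The libraries of the 2 genotypes also differed in how their counts were spread over genes. The 100 most abundant genes held 48.5% to 53.4% of the counts of a brm-3 dog1-4 library and 60.6% to 63.0% of those of a brm-3 library, and the TMM factors were 1.18 to 1.34 in brm-3 dog1-4 and 0.831 to 0.919 in brm-3. Scaling by TMM centred the median log2 fold change of all tested genes at 0.01, whereas scaling by library totals alone moved it to 0.56. Changes are therefore given relative to the median gene, and each gene group is also given with library totals, where 5782 genes (56.4% of those tested) rose and 599 (5.84%) fell at an adjusted p under 0.05 and any fold. The brm-3 dog1-4 library of replicate 3 was the shallowest and lay nearest to brm-3: over the called genes its median distance from the brm-3 libraries, in the direction of the call, was 1.09 on the log2 scale, against 1.29 to 1.33 for the other 3.

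The targeted transcript followed the labels. DOG1 (AT5G45830, chromosome 5, 18589418-18591506, minus strand, TAIR10.1) had 0.8286, 3.21, 4.38 and 4.19 CPM in brm-3 dog1-4, against 98.3, 125, 92.6 and 101.1 CPM in brm-3. The 2 sets of libraries were far apart, and the mean was 3.15 ± 1.63 CPM in brm-3 dog1-4 and 104 ± 14.3 CPM in brm-3 (SD, n = 4 each; log2 fold change -5.09, SE 0.21, edgeR adjusted p = 2.28e-28). The exact two-sided permutation test of 4 against 4 log2 CPM values gave p = 0.0286, the smallest p that this design allows. Between 2 and 10 counts remained in each brm-3 dog1-4 library. Whether counting used strand is not given in the sources used here, so reads of DOG1 and of its antisense transcript cannot be told apart. Without brm-3 the log2 fold change of DOG1 in dog1-4 was -4.74, and the difference between backgrounds did not pass the test (edgeR adjusted p = 0.727). BRM (AT2G46020), interrupted in both genotypes, had 10.4, 12.5, 18.4 and 9.63 CPM in brm-3 dog1-4, against 18.4, 9.10, 8.96 and 10.6 CPM in brm-3, which overlapped (log2 fold change 0.05, edgeR adjusted p = 0.894, exact permutation p = 0.6).

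**Figure D1:**
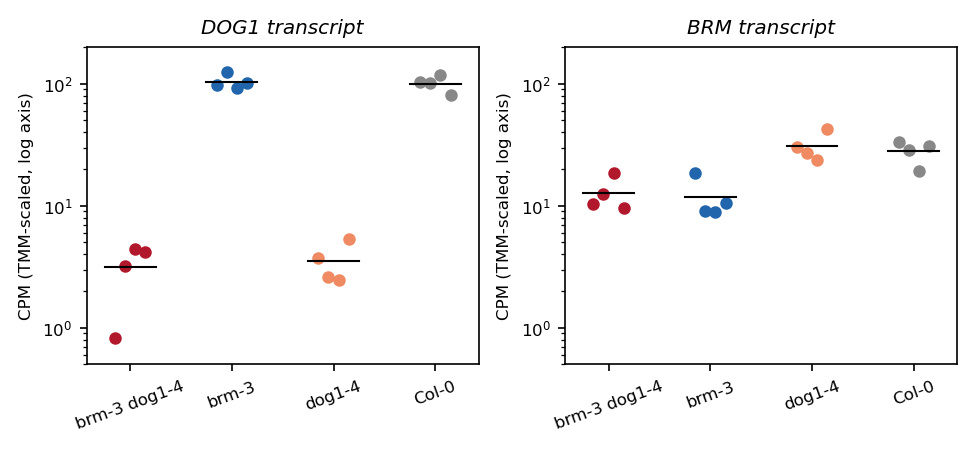
DOG1 and BRM transcripts in each library, in CPM on a log axis, with genotypes from left to right as brm-3 dog1-4, brm-3, dog1-4 and Col-0. Points are libraries and lines are means; DOG1 lay at or below 4.38 CPM in every brm-3 dog1-4 library and at or above 92.6 CPM in every brm-3 library, and BRM overlapped between these 2 genotypes.

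A gene counted as called when its absolute log2 fold change was over 1 and its p, adjusted by Benjamini and Hochberg over all tested genes in edgeR's quasi-likelihood framework, was under 0.05. By this rule 705 genes (6.88% of those tested) rose and 499 (4.87%) fell in brm-3 dog1-4 relative to brm-3. The median log2 fold change was 1.36 among those that rose and -1.29 among those that fell. In 1102 of the 1204 called genes (91.5%) the 4 libraries of one genotype lay wholly above or below the 4 of the other, and over all tested genes 16.1% had all brm-3 dog1-4 libraries above and 17.4% all below. At any fold, 1895 genes (18.5%) rose and 2018 (19.7%) fell at an adjusted p under 0.05, the rule by which members of gene groups are counted here. Without brm-3 dog1-4 replicate 3, 836 genes were called higher and 584 lower. Of the calls, 58.6% were increases. With library totals alone 2224 genes rose and 173 fell, so that 92.8% of calls were increases.

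Promoters of the genes that fell and of those that rose held several sequence motifs in different shares, given here as a description with no test. The core of the ABA response element, ACGTG, was searched on both strands from 250 bases before to 50 bases after each annotated gene start. It was present in 49.1% of the 497 promoters of genes called lower, in 28.1% of the 702 promoters of genes called higher, in 29.2% of those of all tested genes and in 24.7% of all 37049 promoters. The RY element CATGCA, which the maturation factor ABI3 and its relatives bind, was found in 13.3% of promoters of genes called lower, 7.83% of those called higher, 7.46% of those tested and 10.4% of all promoters. The telo-box AAACCCTA, common in plant ribosomal protein genes, had the opposite distribution, with 3.22% for genes called lower, 11.8% for genes called higher, 6.52% for tested genes and 6.16% for all promoters. Its share among genes called higher was 5.98% when only the bases before the start were searched, against 4.02% of tested genes. Site II elements (TGGGCC or TGGGCT) were in 20.7% of promoters of genes called lower, 32.9% of those called higher, 31.1% of those tested and 19.4% of all promoters. The heat shock element core GAANNTTC was in 9.26%, 10.11%, 11.0% and 11.4% of the same sets. A match of these letters does not show that a factor was bound.

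**Figure D2:**
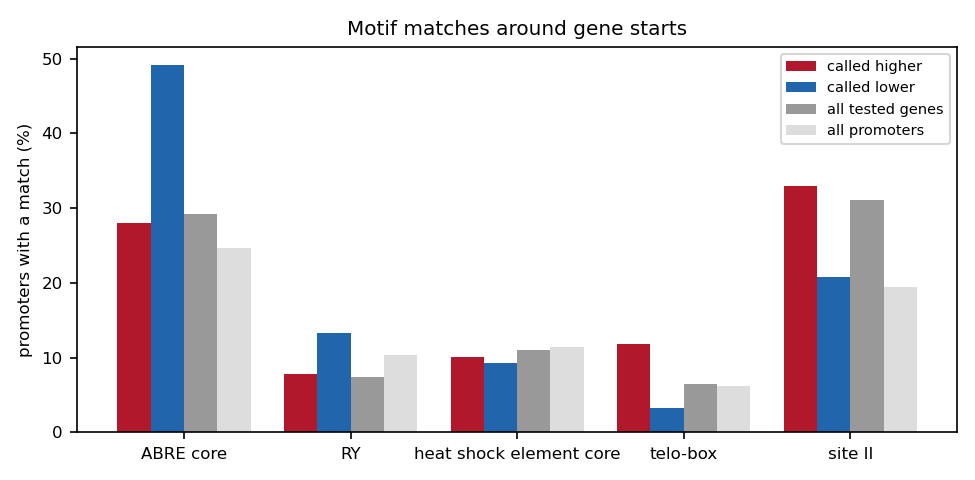
Share of promoters with a match to each motif on either strand, in percent, for genes called higher and called lower in brm-3 dog1-4 relative to brm-3, for all tested genes and for all annotated promoters. The ABA response element core stood at 49.1% in genes called lower and 28.1% in genes called higher, and the telo-box at 3.22% and 11.8%.

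To show these letters in context, the 150 bases before the gene start are printed for genes whose level changed, 5′ to 3′ on the strand of the gene, from the TAIR10.1 genome of RefSeq, with matches in capitals. CACGTG reads the same on both strands and so counts as a match on each. The first 3 are the LEA genes called lower that had a match here and the smallest adjusted p, the next 2 are genes of ABA signaling chosen in the same way (none of the 5 windows overlaps another annotated gene), and the capitals mark ACGTG or its complement CACGT.
AT2G18340 (chr2:7969148-7969297, plus strand): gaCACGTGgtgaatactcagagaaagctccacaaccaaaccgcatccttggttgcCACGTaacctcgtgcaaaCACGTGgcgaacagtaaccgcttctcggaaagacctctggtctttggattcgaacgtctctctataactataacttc
AT3G53040 (chr3:19666498-19666647, minus strand): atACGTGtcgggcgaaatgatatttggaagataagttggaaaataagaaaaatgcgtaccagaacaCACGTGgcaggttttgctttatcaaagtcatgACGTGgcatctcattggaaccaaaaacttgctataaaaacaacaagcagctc
AT4G36600 (chr4:17263414-17263563, plus strand): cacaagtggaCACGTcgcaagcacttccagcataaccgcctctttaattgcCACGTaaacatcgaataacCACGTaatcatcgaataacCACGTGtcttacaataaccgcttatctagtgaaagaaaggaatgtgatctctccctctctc
AHG1 (chr5:21026655-21026804, plus strand): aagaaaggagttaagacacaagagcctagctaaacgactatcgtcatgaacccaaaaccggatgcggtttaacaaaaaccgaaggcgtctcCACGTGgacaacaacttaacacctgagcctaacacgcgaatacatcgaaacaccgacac
AFP1 (chr1:26038755-26038904, plus strand): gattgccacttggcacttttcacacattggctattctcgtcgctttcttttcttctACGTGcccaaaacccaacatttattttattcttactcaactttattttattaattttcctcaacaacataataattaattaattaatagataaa

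The LEA genes held between 4 and 5 matches in these windows, counted over both strands. Among ribosomal protein genes called higher, the first 3 with a telo-box before the start are shown, with AAACCCTA or its complement TAGGGTTT in capitals.
AT5G16130 (chr5:5268271-5268420, plus strand): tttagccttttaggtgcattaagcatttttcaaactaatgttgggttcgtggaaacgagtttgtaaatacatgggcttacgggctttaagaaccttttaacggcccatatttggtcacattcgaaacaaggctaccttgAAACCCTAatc
AT5G07090 (chr5:2202214-2202363, plus strand): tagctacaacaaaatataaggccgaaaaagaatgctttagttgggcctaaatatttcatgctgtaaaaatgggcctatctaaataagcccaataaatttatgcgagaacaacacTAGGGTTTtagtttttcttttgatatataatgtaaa
AT4G27090 (chr4:13595253-13595402, minus strand): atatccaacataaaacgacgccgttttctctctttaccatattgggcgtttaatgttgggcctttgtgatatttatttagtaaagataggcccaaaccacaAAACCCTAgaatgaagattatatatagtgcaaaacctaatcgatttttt

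The 10 largest increases were taken from genes that passed the test, averaged 20 counts or more in the 8 libraries and did not overlap between groups. AT5G11420, which encodes a protein of unknown function, had 109, 123, 80.6 and 136 CPM in brm-3 dog1-4, against 4.10, 9.10, 5.97 and 10.6 CPM in brm-3. The lowest brm-3 dog1-4 value, that of replicate 3, lay far above the highest brm-3 value (log2 fold change 3.91, SE 0.19, edgeR adjusted p = 2.92e-23). GASA6, a gibberellin-regulated gene, had 19.1, 17.0, 14.0 and 16.7 CPM in brm-3 dog1-4, against 1.37, 0, 1.19 and 1.76 CPM in brm-3, and its brm-3 values rest on at most 3 counts per library (log2 fold change 3.89, SE 0.39, edgeR adjusted p = 3.32e-12). GA20OX3, which makes active gibberellin precursors, had 30.7, 39.5, 22.8 and 38.9 CPM in brm-3 dog1-4, against 1.37, 1.82, 3.58 and 2.94 CPM in brm-3 (log2 fold change 3.76, SE 0.28, edgeR adjusted p = 3.93e-17). This enzyme, a 20-oxidase, promotes gibberellin synthesis, and its transcript was under 4 CPM in every brm-3 library. DWF1, a reductase of sterol and brassinosteroid synthesis, had 34.8, 51.4, 13.1 and 37.7 CPM in brm-3 dog1-4, against 2.73, 3.64, 0.597 and 4.11 CPM in brm-3 (log2 fold change 3.70, SE 0.40, edgeR adjusted p = 2.12e-07). The cell wall-plasma membrane linker gene CWLP had 36.5, 48.2, 18.4 and 39.8 CPM in brm-3 dog1-4, against 0.683, 2.43, 1.19 and 5.88 CPM in brm-3 (log2 fold change 3.82). STR18, a sulfurtransferase, had 59.2, 88.3, 36.8 and 62.8 CPM in brm-3 dog1-4, against 2.73, 3.03, 3.58 and 7.64 CPM in brm-3 (log2 fold change 3.88). In each of these 6 genes replicate 3 was the lowest brm-3 dog1-4 library. The remaining increases were those of the AP2/ERF factor gene ESE3 (log2 fold change 3.81), the cysteine proteinase gene AT3G45310 (3.48), the acyltransferase gene AT5G01210 (3.47) and CCL (3.21), with edgeR adjusted p between 2.29e-15 and 1.77e-12.

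The 10 largest decreases were taken by the same rule, which leaves out genes of fewer counts such as GA2OX6 and ELIP1. Among them, after DOG1 itself, the cytochrome P450 gene CYP76C2 had 1.24, 5.46, 6.13 and 4.19 CPM in brm-3 dog1-4, against 56.7, 41.3, 62.7 and 49.4 CPM in brm-3 (log2 fold change -3.66, SE 0.33, edgeR adjusted p = 3.75e-08). AT4G36600, a LEA gene, was the most abundant of the 10, with 465, 383, 803 and 549 CPM in brm-3 dog1-4, against 4594, 4469, 5083 and 5627 CPM in brm-3. Its highest brm-3 dog1-4 value, that of replicate 3, was still far below the lowest brm-3 value (log2 fold change -3.18, SE 0.15, edgeR adjusted p = 4.59e-18). GATA19, a transcription factor gene that lies near AT4G36600 on chromosome 4, had 10.4, 12.2, 22.8 and 15.9 CPM in brm-3 dog1-4, against 109, 94.0, 97.4 and 109 CPM in brm-3 (log2 fold change -2.84, SE 0.15, edgeR adjusted p = 2.2e-24). AFP3 encodes a partner of the ABA-response factor ABI5 and had 2.90, 8.67, 2.63 and 0.837 CPM in brm-3 dog1-4, against 34.1, 25.5, 37.6 and 32.3 CPM in brm-3 (log2 fold change -2.91, SE 0.29, edgeR adjusted p = 1.47e-10). AFP3 was below 9 CPM in all brm-3 dog1-4 libraries and above 25 CPM in all brm-3 libraries. Decreases were also found for the cellulose synthase-like gene CSLG2 (log2 fold change -3.39), the MADS-box gene AGL94 (-2.98), the RING/U-box gene AT1G24580 (-2.96), the transporter gene AT1G72120 (-2.79) and DIP2 (-2.76), a ubiquitin ligase gene, with edgeR adjusted p between 3.83e-19 and 2.16e-10.

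**Figure D3:**
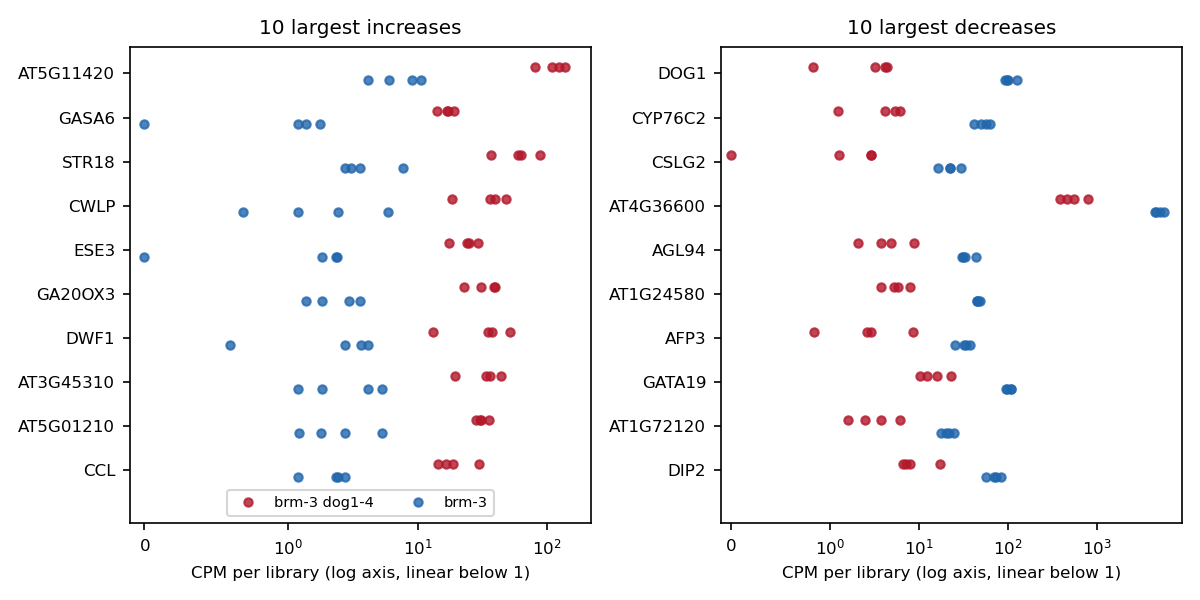
CPM of each library for the 10 genes that rose most and the 10 that fell most in brm-3 dog1-4 (upper points of each pair) relative to brm-3 (lower points), on an axis that is logarithmic above 1 CPM and linear below. The genes were chosen for not overlapping; the spread within a genotype can be read from the points, as for AFP3, from 0.837 to 8.67 CPM in brm-3 dog1-4.

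LEA and dehydrin genes, whose products protect dry cells, fell in most members. Of 31 tested members 25 fell and 3 rose at an adjusted p under 0.05 (19.7% and 18.5% of all tested genes), with a median log2 fold change of -0.83, against 0.01 over all tested genes. With library totals the median was -0.29, and 19 members fell and 6 rose. Their summed level was 75257, 73700, 96224 and 77270 CPM in brm-3 dog1-4, against 166390, 155016, 183762 and 172192 CPM in brm-3. The groups did not overlap, and LEA transcripts made up 9.72% to 11.2% of all counts in brm-3 dog1-4 and 14.1% to 15.2% in brm-3. AT2G18340, which had the smallest p of the members that fell, had 114, 86.7, 147 and 101.3 CPM in brm-3 dog1-4, against 355, 321, 333 and 409 CPM in brm-3 (log2 fold change -1.70, SE 0.11, edgeR adjusted p = 1.26e-19). AT3G53040 had 826, 867, 1008 and 735 CPM in brm-3 dog1-4, against 3456, 2535, 2882 and 3666 CPM in brm-3 (log2 fold change -1.87, SE 0.12, edgeR adjusted p = 1.4e-18). RAB18, a dehydrin gene used as a marker of ABA response, had a log2 fold change of -1.27 and LEA4-5 one of -1.55. The largest exception was the dehydrin gene AT1G54410, which had the smallest p of the whole group. It rose, with 83.3, 77.7, 70.1 and 91.3 CPM in brm-3 dog1-4, against 9.56, 12.7, 17.3 and 11.8 CPM in brm-3 (log2 fold change 2.65, SE 0.16, edgeR adjusted p = 4.95e-21). ERD14, another dehydrin gene, also rose (log2 fold change 1.39, edgeR adjusted p = 0.00106). Of the tested members 27 of 31 had the ABA response element core in the promoter window, as had 23 of the 25 that fell.

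Oleosin and caleosin genes, whose products cover oil bodies, fell in 7 of 10 tested members and rose in 0. Their median log2 fold change was -0.53, and it was 0.00 with library totals, under the 0.56 of all genes, where 3 members fell and 3 rose. OLEO4 had 2863, 2892, 4114 and 3150 CPM in brm-3 dog1-4, against 9043, 8903, 11048 and 10048 CPM in brm-3 (log2 fold change -1.59, SE 0.13, edgeR adjusted p = 3.36e-16). OLEO2 had 4799, 4767, 6507 and 5997 CPM in brm-3 dog1-4, against 8038, 8181, 10280 and 10246 CPM in brm-3 (log2 fold change -0.74, SE 0.12, edgeR adjusted p = 9.25e-07). OLEO1, the major oleosin gene of the seed, had a log2 fold change of -0.42 (edgeR adjusted p = 0.00334) that was 0.11 with library totals. In sum the group held 24623, 24179, 32379 and 29221 CPM in brm-3 dog1-4, against 40963, 42199, 48193 and 46525 CPM in brm-3, with no overlap. As a share of all counts it held 3.19% to 3.78% in brm-3 dog1-4 and 3.69% to 4.11% in brm-3, where the ranges overlapped.

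Seed storage protein genes were lower in sum under TMM scaling, although single members moved both ways. Of 10 tested members 5 fell and 1 rose, with a median log2 fold change of -0.64 (-0.11 with library totals, where 3 fell and 3 rose). SESA5, an albumin gene, had 7049, 8406, 7832 and 7206 CPM in brm-3 dog1-4, against 27320, 30651, 34912 and 26837 CPM in brm-3, a decrease (log2 fold change -1.97, SE 0.14, edgeR adjusted p = 4.43e-17). The 12S cruciferin gene CRA1 rose, with 24558, 21570, 22678 and 27745 CPM in brm-3 dog1-4, against 14755, 15394, 18552 and 15857 CPM in brm-3 (log2 fold change 0.58, SE 0.14, edgeR adjusted p = 0.000505). PAP85, a vicilin-like gene, fell (log2 fold change -0.69, SE 0.12, edgeR adjusted p = 2.43e-06), while CRU3 had a log2 fold change of 0.12 that did not pass the test (edgeR adjusted p = 0.748). In sum the group held 67925 to 88286.5 CPM in brm-3 dog1-4 and 102042 to 136538 CPM in brm-3, with no overlap. The share of all counts that storage transcripts held was 8.96% to 11.1% in brm-3 dog1-4 and 9.18% to 11.3% in brm-3, and it overlapped.

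Ribosomal protein genes rose in most members. Of 256 tested members, with those annotated as chloroplast or mitochondrial left out, 182 rose and 11 fell (7 fell without brm-3 replicate 3; with library totals 232 rose and 0 fell), and the median log2 fold change was 0.74. Summed, they reached 15640, 16845, 14079 and 16542 CPM in brm-3 dog1-4, against 9557, 10985, 10136 and 10101 CPM in brm-3, with no overlap. They made up 1.64% to 2.22% of all counts in brm-3 dog1-4 and 0.835% to 1.00% in brm-3. RPS15, of the small subunit, had 136, 168, 127 and 175 CPM in brm-3 dog1-4, against 39.6, 56.4, 46.6 and 55.8 CPM in brm-3 (log2 fold change 1.62, SE 0.12, edgeR adjusted p = 2.74e-17). RPL16B, of the large subunit, had 115, 127, 88.5 and 124 CPM in brm-3 dog1-4, against 36.2, 38.8, 34.6 and 38.8 CPM in brm-3 (log2 fold change 1.63, SE 0.13, edgeR adjusted p = 8.29e-17). AT3G45030 had 43.5, 47.9, 32.4 and 52.7 CPM in brm-3 dog1-4, against 4.78, 11.5, 6.57 and 9.40 CPM in brm-3 (log2 fold change 2.46, SE 0.20, edgeR adjusted p = 7.05e-16). The lowest value in brm-3 dog1-4 was that of the shallow replicate 3 in each of these 3 genes, and it was still at least 2-fold above the highest in brm-3. The genes printed with their telo-box had log2 fold changes of 2.05 (AT5G16130), 1.75 (AT5G07090) and 1.16 (AT4G27090). Among the 182 members that rose, 84 had a telo-box in the promoter window (46.2%) and 143 a site II element (78.6%), against 37.5% and 69.9% of all 256. When only the bases before the start were searched, the telo-box was found in 17.0% of the members that rose and 14.1% of all 256. Many of these genes have near-identical copies among which the authors' counting could have divided reads, so values of single members are uncertain, and the same holds for histone and heat shock genes.

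**Figure D4:**
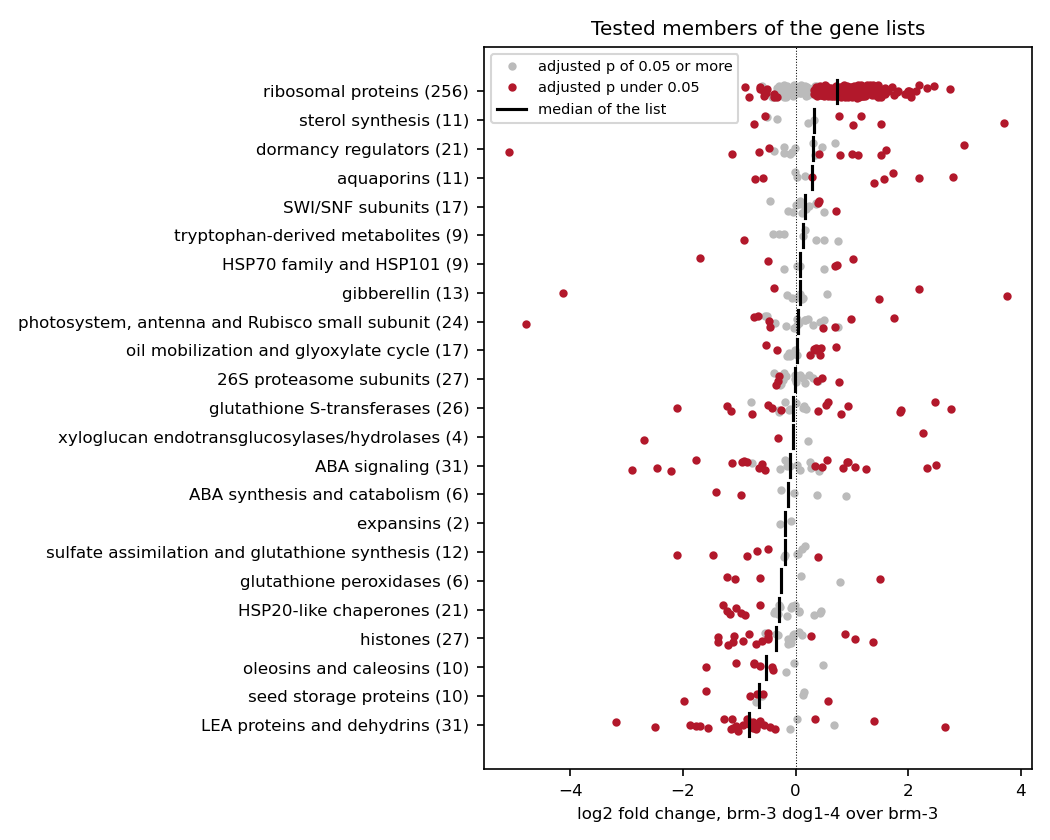
Log2 fold change in brm-3 dog1-4 over brm-3 for each tested member of the gene groups, with the number of tested members in brackets. Red points passed an adjusted p under 0.05 and black lines are medians, which ran from 0.74 for ribosomal protein genes to -0.83 for LEA proteins and dehydrins.

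Genes of ABA signaling included members that rose and members that fell. Of 31 tested members 10 rose and 11 fell, and the median was -0.09, with the opposite sign with library totals (0.45, against 0.56 over all genes), where 15 rose and 8 fell. Clade A phosphatases, which inhibit the SnRK2 kinases of the pathway, moved both ways. AHG1, a partner of DOG1, had 202, 208, 209 and 221 CPM in brm-3 dog1-4, against 444, 432, 502 and 455 CPM in brm-3 (log2 fold change -1.13, SE 0.09, edgeR adjusted p = 7.01e-16). HAI1 and ABI2 also fell (log2 fold changes -2.22 and -0.96), whereas ABI1 and HAI3 rose (0.93 and 1.24; edgeR adjusted p between 4.47e-10 and 2.42e-05 for these 4). Among the AFP genes, whose products bind ABI5, AFP1 had 5.39, 5.14, 7.01 and 4.19 CPM in brm-3 dog1-4, against 27.3, 35.8, 26.9 and 25.9 CPM in brm-3 (log2 fold change -2.46, SE 0.22, edgeR adjusted p = 1.7e-14), and AFP2 fell like AFP3 (log2 fold change -0.91), while the related TMAC2 did not pass the test (-0.78, edgeR adjusted p = 0.0843). ABI5 itself fell (log2 fold change -0.85, edgeR adjusted p = 2.5e-10). EEL, a bZIP factor that competes with ABI5, rose, with 209, 283, 184 and 224 CPM in brm-3 dog1-4, against 112, 109, 103 and 114 CPM in brm-3 (log2 fold change 1.05, SE 0.11, edgeR adjusted p = 7.28e-12). ABF2 (2.50) and ABI4 (2.34) rose too. Among receptors PYL12 fell (-1.76), and RCAR3, also called PYL8, had 5.80, 11.6, 6.13 and 10.5 CPM in brm-3 dog1-4, against 5.46, 3.64, 7.76 and 2.94 CPM in brm-3, which overlapped although the test passed (edgeR adjusted p = 0.0359). RCAR3 no longer passed when any one of 5 of the 8 libraries was left out (brm-3 replicate 1, 2 or 4, or brm-3 dog1-4 replicate 2 or 4), with a log2 fold change between 0.64 and 0.88.

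Of the 6 tested genes of ABA synthesis and catabolism 2 fell and 0 rose (1 rose without brm-3 replicate 4 or brm-3 dog1-4 replicate 3), with a median of -0.14 that was 0.40 with library totals, where 2 fell and 3 rose. NCED4, annotated as an epoxycarotenoid dioxygenase, had 58.0, 48.5, 80.6 and 68.6 CPM in brm-3 dog1-4, against 161, 156, 162 and 179.8 CPM in brm-3 (log2 fold change -1.41, SE 0.13, edgeR adjusted p = 8.06e-12). ABA1, the zeaxanthin epoxidase of an early step, had 94.9, 82.9, 108 and 85.0 CPM in brm-3 dog1-4, against 188, 175, 186 and 166 CPM in brm-3 (log2 fold change -0.97, SE 0.10, edgeR adjusted p = 8.31e-12). CYP707A2, which inactivates ABA, had 15.7, 19.9, 7.01 and 15.5 CPM in brm-3 dog1-4, against 11.6, 10.9, 13.7 and 11.8 CPM in brm-3 and did not pass the test (log2 fold change 0.39, edgeR adjusted p = 0.171), but passed it with library totals (0.93, edgeR adjusted p = 0.000855). NCED9 likewise had a log2 fold change of 0.90 (edgeR adjusted p = 0.055) and of 1.44 with library totals (edgeR adjusted p = 0.0012). NCED5 had 1 count in all 4 brm-3 dog1-4 libraries together and 3 in those of brm-3, too few to compare.

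Of 13 tested gibberellin genes 3 rose and 2 fell (9 and 1 with library totals), with a median of 0.08. These shares, 23.1% and 15.4%, were near the 18.5% and 19.7% of all tested genes. Besides GA20OX3, the increases were those of 2 DELLA genes, whose products repress gibberellin responses. RGL2, the main DELLA repressor of germination, had 16.6, 23.8, 14.9 and 21.8 CPM in brm-3 dog1-4, against 3.41, 6.67, 4.18 and 2.94 CPM in brm-3 (log2 fold change 2.19, SE 0.28, edgeR adjusted p = 3.62e-09). GAI had 29.4, 36.0, 21.03 and 25.5 CPM in brm-3 dog1-4, against 8.19, 9.71, 6.57 and 16.5 CPM in brm-3 (log2 fold change 1.49, SE 0.21, edgeR adjusted p = 4.6e-08). GA2OX6, an enzyme that inactivates gibberellin, had 2 counts over the brm-3 dog1-4 libraries and 33 over the brm-3 libraries, a ratio of 23.03 with a 95% counting interval of 5.89 to 198. The receptor gene GID1A fell slightly (log2 fold change -0.38, edgeR adjusted p = 0.00243, and 0.17 with library totals). RGL3 did not pass the test (-0.07, edgeR adjusted p = 0.842), and RGL1 had 4 counts over the brm-3 dog1-4 libraries and 2 over those of brm-3.

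Of 21 tested regulators of dormancy 7 rose and 4 fell (14 and 2 with library totals), and DOG1 and AHG1 were among those that fell. The shares were 33.3% and 19.0%, against 18.5% and 19.7% of all tested genes, so the share that fell was near that of all genes. The phosphatase gene AT4G11040 rose, with 233, 214, 269 and 263 CPM in brm-3 dog1-4, against 78.5, 72.8, 68.7 and 98.2 CPM in brm-3 (log2 fold change 1.61, SE 0.11, edgeR adjusted p = 1.81e-18). E12A11, of the PEBP family, had 115, 109.9, 136 and 110.1 CPM in brm-3 dog1-4, against 52.6, 63.7, 53.8 and 62.9 CPM in brm-3 (log2 fold change 0.996, SE 0.13, edgeR adjusted p = 2.64e-09). PIL5, a factor that represses germination in the dark, also rose (log2 fold change 1.52), as did the Polycomb methyltransferase gene SWN (1.11) and ABI3 (0.41), a master regulator of seed maturation. Of the DOG1-like genes, AT4G18690 rose (log2 fold change 2.99, edgeR adjusted p = 1.13e-08) and AT4G18650 fell (-0.65, edgeR adjusted p = 0.00135), while AT4G18660 and AT4G18680 did not pass the test (-0.06 and -0.01). The 17 tested SWI/SNF subunit genes held 3 that rose, a share near the 18.5% of all tested genes, and 0 that fell (1 rose without brm-3 replicate 3 or without brm-3 dog1-4 replicate 3, and 13 with library totals). ARP4, an actin-related subunit, had 45.2, 37.3, 39.4 and 40.6 CPM in brm-3 dog1-4, against 27.3, 23.1, 22.7 and 25.3 CPM in brm-3 (log2 fold change 0.73, SE 0.15, edgeR adjusted p = 5.46e-05), and the ATPase genes SYD (0.39) and ATCHR12 (0.42) had overlapping libraries.

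Genes for sulfate reduction, which supplies cysteine for glutathione, fell in 5 of 12 tested members and rose in 1, with a median of -0.19 that was 0.35 with library totals, where 3 fell and 3 rose. APR2, the adenylylsulfate reductase, had 29.0, 14.1, 28.0 and 18.8 CPM in brm-3 dog1-4, against 92.9, 77.0, 86.6 and 114 CPM in brm-3 (log2 fold change -2.11, SE 0.16, edgeR adjusted p = 1.35e-13). SIR, the sulfite reductase, had 58.4, 53.0, 92.0 and 69.5 CPM in brm-3 dog1-4, against 182, 188, 182 and 180.4 CPM in brm-3 (log2 fold change -1.47, SE 0.11, edgeR adjusted p = 8.1e-17). APS1, the ATP sulfurylase at the entry of the pathway, had 70.8, 58.8, 63.1 and 69.1 CPM in brm-3 dog1-4, against 109, 109.8, 127 and 132 CPM in brm-3 (log2 fold change -0.87, SE 0.11, edgeR adjusted p = 1.1e-09). GSH1, the first enzyme of glutathione synthesis, fell (log2 fold change -0.49, SE 0.09, edgeR adjusted p = 1.91e-05), and its change was 0.04 with library totals. Of 6 glutathione peroxidase genes, which remove peroxides, 3 fell and 1 rose (1 and 3 with library totals; 2 rose without brm-3 replicate 1 or without brm-3 dog1-4 replicate 3 or 4). GPX6 had 782, 806, 1023 and 848 CPM in brm-3 dog1-4, against 1749, 1826, 2055 and 1640 CPM in brm-3 (log2 fold change -1.07, SE 0.11, edgeR adjusted p = 6.03e-13). GPX1 had 57.6, 51.1, 60.5 and 64.9 CPM in brm-3 dog1-4, against 84.7, 87.4, 89.0 and 99.3 CPM in brm-3 (log2 fold change -0.63, SE 0.11, edgeR adjusted p = 5.35e-06; -0.09 with library totals, where its adjusted p was 0.495), and GPX2 rose (log2 fold change 1.49). Glutathione S-transferase genes were mixed, with 9 of 26 higher and 7 lower (15 and 2 with library totals). GSTU13 had 44.7, 53.0, 42.9 and 37.7 CPM in brm-3 dog1-4, against 8.88, 9.71, 14.3 and 15.9 CPM in brm-3 (log2 fold change 1.87, SE 0.18, edgeR adjusted p = 5.35e-13). GSTU9 had 17.0, 17.0, 28.9 and 14.7 CPM in brm-3 dog1-4, against 46.4, 35.8, 37.6 and 41.7 CPM in brm-3 (log2 fold change -1.15, SE 0.16, edgeR adjusted p = 4.59e-08). GSTU19 and GSTU12 rose (log2 fold changes 0.55 and 1.85), although GSTU12 overlapped between groups. GSTU10 was too low to be tested, with 4 to 32 counts in a brm-3 dog1-4 library and 0 to 8 in a brm-3 library, as was GSTU11 with 0 to 33 counts in a brm-3 dog1-4 library and 3 to 8 in a brm-3 library. Of 9 tested genes of tryptophan-derived metabolites 1 fell, the nitrilase gene NIT3 (log2 fold change -0.91, edgeR adjusted p = 0.000506), and 0 rose (1 rose without brm-3 replicate 4 or brm-3 dog1-4 replicate 3). With library totals NIT3 did not pass (-0.36, edgeR adjusted p = 0.151), and 5 members rose and 0 fell. MYB34, MYB51, MYB122 and CYP79B3 had at most 8 counts in any of the 8 libraries.

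Heat shock proteins of the HSP20-like family fell in 7 of 21 tested members and rose in 0 (1 without brm-3 dog1-4 replicate 2), with a median of -0.30 (0.24 with library totals, where 5 fell and 6 rose). HSP17.4 had 1120, 1100, 1397 and 1061 CPM in brm-3 dog1-4, against 2497, 2510, 2835 and 3081 CPM in brm-3 (log2 fold change -1.23, SE 0.11, edgeR adjusted p = 5.89e-15). HSP17.6A had 2230, 2406, 3093 and 2386 CPM in brm-3 dog1-4, against 4644, 4591, 5050 and 5464 CPM in brm-3 (log2 fold change -0.97, SE 0.11, edgeR adjusted p = 1.44e-10). Of 9 tested members of the HSP70 family with HSP101, 3 rose (1 without brm-3 replicate 4) and 2 fell (7 and 1 with library totals). These shares were 33.3% and 22.2%, against 18.5% and 19.7% of all tested genes. The heat-inducible Hsp70b had 304, 326, 324 and 274 CPM in brm-3 dog1-4, against 886, 882, 905 and 1292 CPM in brm-3 (log2 fold change -1.69, SE 0.11, edgeR adjusted p = 8.63e-19). The constitutive HSC70-1 moved the other way, with 334, 385, 286 and 347 CPM in brm-3 dog1-4, against 151, 195, 141 and 181 CPM in brm-3 (log2 fold change 1.02, SE 0.10, edgeR adjusted p = 6.44e-13). HSP101, the disaggregase, fell (log2 fold change -0.48, edgeR adjusted p = 6.53e-05), but had 0.05 with library totals.

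Among genes that act after germination begins, 7 of 17 tested genes of oil breakdown and the glyoxylate cycle rose (4 without brm-3 replicate 1) and 2 fell (1 without brm-3 replicate 3 or 4, or without brm-3 dog1-4 replicate 1 or 2). With library totals 15 rose and 0 fell. ICL, the isocitrate lyase that is specific to that cycle, had 3782, 3744, 3693 and 4651 CPM in brm-3 dog1-4, against 2235, 2319, 2641 and 2453 CPM in brm-3 (log2 fold change 0.72, SE 0.10, edgeR adjusted p = 5.78e-08). MFP2, an enzyme of beta-oxidation, had 360.4, 391, 364 and 416 CPM in brm-3 dog1-4, against 266, 283, 302 and 270.4 CPM in brm-3 (log2 fold change 0.45, SE 0.09, edgeR adjusted p = 3.8e-05). ACX1, an acyl-CoA oxidase, fell (log2 fold change -0.53, SE 0.10, edgeR adjusted p = 6.54e-06), with 0.01 under library totals. Of 11 sterol genes 5 rose and 2 fell (1 without brm-3 replicate 1 or 4, or without brm-3 dog1-4 replicate 1), while 7 rose and 0 fell with library totals. Under TMM scaling the shares were 45.5% and 18.2%, and the share that fell was near the 19.7% of all tested genes. After DWF1, HYD1, a sterol isomerase, had 21.1, 26.02, 24.5 and 24.3 CPM in brm-3 dog1-4, against 8.19, 9.71, 5.97 and 9.40 CPM in brm-3 (log2 fold change 1.52, SE 0.21, edgeR adjusted p = 2.44e-08). SQE3, a squalene epoxidase, fell (log2 fold change -0.74), but had -0.19 with library totals (edgeR adjusted p = 0.266).

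Water channel genes moved in both directions. Of 11 tested aquaporin genes 6 rose, all of them PIP genes of the plasma membrane, and 2 fell, TIP3;1 and BETA-TIP, both of the TIP family of vacuoles, while 3 did not pass the test. The shares were 54.5% and 18.2%, against 18.5% and 19.7% of all tested genes, so the share that fell was near that of all genes. With library totals 8 rose and 1 fell. PIP2A had 31.1, 38.9, 21.03 and 34.3 CPM in brm-3 dog1-4, against 8.19, 4.25, 7.76 and 8.23 CPM in brm-3 (log2 fold change 2.19, SE 0.23, edgeR adjusted p = 5.31e-12). PIP1;4 had 81.6, 90.6, 70.1 and 77.9 CPM in brm-3 dog1-4, against 29.4, 23.1, 31.1 and 25.3 CPM in brm-3 (log2 fold change 1.58, SE 0.14, edgeR adjusted p = 1e-14). TIP3;1, abundant in mature seeds, had 2427, 2466, 2795 and 2295 CPM in brm-3 dog1-4, against 3884, 4024, 4400 and 4118 CPM in brm-3 (log2 fold change -0.72, SE 0.11, edgeR adjusted p = 7.46e-08). Of 4 tested genes of xyloglucan-modifying wall enzymes 1, TCH4, rose and 2 fell (1 fell without brm-3 replicate 1 or 3, or without brm-3 dog1-4 replicate 2 or 4; with library totals 2 rose and 1 fell). XTH25 fell, with 1433, 1179, 2131 and 1457 CPM in brm-3 dog1-4, against 9450, 8818, 11201 and 10463 CPM in brm-3 (log2 fold change -2.69, SE 0.14, edgeR adjusted p = 2.22e-20). The neighboring gene TCH4 had 5.80, 28.6, 7.88 and 7.12 CPM in brm-3 dog1-4, against 2.05, 0.607, 0.597 and 7.64 CPM in brm-3, which overlapped (edgeR adjusted p = 0.0357, and between 0.0532 and 0.0997 without any one of brm-3 replicates 1, 2 and 3 or brm-3 dog1-4 replicate 2). Neither of the 2 tested expansin genes passed the test, and 1 rose with library totals, EXLA1 (0.46, against -0.09). Of 24 tested genes of photosystems, antennae and Rubisco 4 rose (2 without brm-3 dog1-4 replicate 2) and 5 fell, shares near the 18.5% and 19.7% of all tested genes, and 15 rose and 1 fell with library totals. RBCS1A, the Rubisco small subunit, had 69.6, 96.4, 53.4 and 100.9 CPM in brm-3 dog1-4, against 23.9, 21.8, 23.3 and 28.8 CPM in brm-3 (log2 fold change 1.75, SE 0.18, edgeR adjusted p = 8.79e-10). ELIP1 had 0 counts in every brm-3 dog1-4 library and 13 over those of brm-3, and the lower 95% counting limit of the ratio was 4.25. RCA, another leaf marker, rose beside RBCS1A (log2 fold change 1.601, edgeR adjusted p = 6.19e-06). So did MAN7, an endosperm marker (log2 fold change 2.62, edgeR adjusted p = 9.93e-08), whereas EPR1, the abundant one, did not pass the test (-0.01, edgeR adjusted p = 0.939). The part of other tissues in these changes was not tested, and in bulk samples fewer cells of a type and less RNA per cell cannot be told apart.

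Of 27 tested genes of the histone group 12 fell and 4 rose (2 without brm-3 replicate 3, or without brm-3 dog1-4 replicate 1 or 3), with a median of -0.34 that was 0.20 with library totals, where 5 fell and 10 rose. HTA13, a histone H2A gene, had 24.0, 31.2, 32.4 and 23.4 CPM in brm-3 dog1-4, against 83.3, 78.3, 66.9 and 58.2 CPM in brm-3 (log2 fold change -1.38, SE 0.16, edgeR adjusted p = 8.8e-10). The linker histone gene HIS1-3 rose, with 86.2, 77.1, 126 and 95.0 CPM in brm-3 dog1-4, against 51.9, 50.4, 48.4 and 52.3 CPM in brm-3 (log2 fold change 0.88, SE 0.13, edgeR adjusted p = 1.01e-07). Subunit genes of the 26S proteasome, which degrades ubiquitin-tagged proteins, had 3 of 27 members higher (1 without brm-3 replicate 4) and 3 lower (1 without brm-3 replicate 2 or 3, or without brm-3 dog1-4 replicate 1 or 2), with a median of -0.02 that was 0.53 with library totals, where 16 rose and 0 fell. Under TMM scaling each share was 11.1%, below the 18.5% and 19.7% of all tested genes, and with library totals 56.4% of all tested genes rose. RPT5B, an ATPase subunit, had the smallest p (log2 fold change 0.77, edgeR adjusted p = 0.000759).

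The same allele was then compared in the wild-type background, where dog1-4 was set against Col-0. These comparisons share no library. In dog1-4, 431 genes (4.2% of those tested) rose and 209 (2.04%) fell, so 640 genes were called against 1204 in the brm-3 background. Of these, 387 genes were called in the same direction in both (250 that rose and 137 that fell), which is 32.1% of the calls made with brm-3 and 60.5% of those made without it, and 4 were called in opposite directions. Among the 1204 genes, 1095 (90.9%) had the same sign in dog1-4 against Col-0. Across the 10251 tested genes the log2 fold changes had a Pearson correlation of 0.63 and a Spearman correlation of 0.54, which is a description, since genes are not independent replicates. A gene called in one background only is not thereby different between them: of the 813 genes called with brm-3 and not without it, 274 also had a change that differed significantly between the backgrounds, as had 65 of the 249 called without brm-3 only.

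The difference itself was tested as the change in the brm-3 background minus that in the Col-0 background, in the same edgeR fit. Over all tested genes 1.95% of genes had a positive and 6.84% a negative difference that passed an adjusted p of 0.05. Among the 499 genes that fell with brm-3, 236 had a negative difference, so that they fell by more there than in the Col-0 background, and 2 a positive one. Of the 705 that rose, 71 rose by more and 8 by less. The change with brm-3 both chose these genes and is a term of the difference, so the choice favors differences in its own direction, and the counts are a description that is not to be set against the shares over all genes. The number that fell by more was between 189 and 296 when any one of the 16 libraries was left out, whereas the number that rose by more depended on single libraries. It was 44 when brm-3 dog1-4 replicate 2 was dropped and 39 when brm-3 replicate 3 was dropped, and it was 40 in the absence of dog1-4 replicate 3. Dropping a Col-0 library gave 45 (replicate 1) or 41 (replicate 4). The larger number turned with the scaling: with library totals 61 genes fell by more and 461 rose by more.

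**Figure D5:**
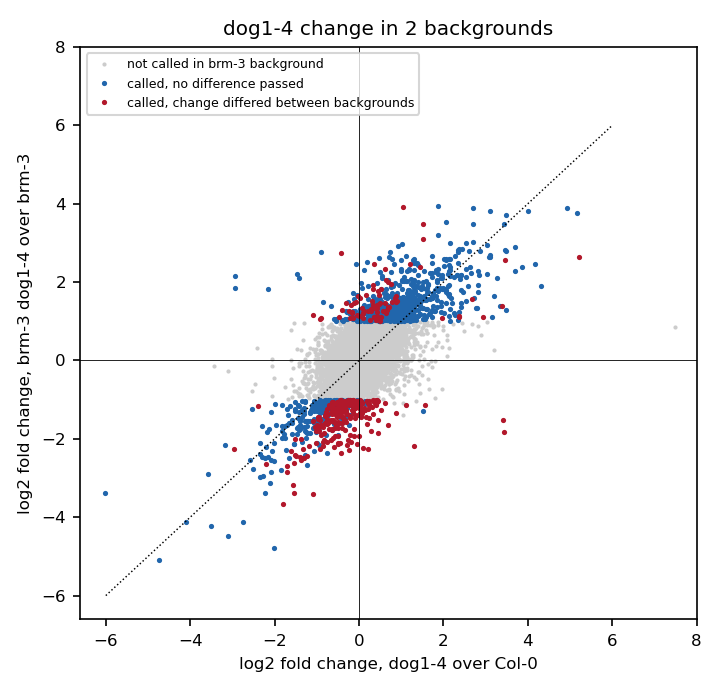
Log2 fold change of each tested gene in brm-3 dog1-4 over brm-3 (vertical) and in dog1-4 over Col-0 (horizontal), with the line of equal change dotted. Red points are called genes whose change differed between backgrounds at an adjusted p under 0.05, of which 236 fell by more and 71 rose by more with brm-3.

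AT5G39520, a gene of unknown function, showed one of the clearest differences. It had 39.8, 37.3, 49.9 and 39.3 CPM in brm-3 dog1-4, against 201, 141, 182 and 179 CPM in brm-3 (log2 fold change -2.11, SE 0.12, edgeR adjusted p = 6.04e-21), while the log2 fold change in dog1-4 against Col-0 was -0.44 (difference -1.67, edgeR adjusted p = 4.92e-10). UGE3, an epimerase that interconverts UDP-glucose and UDP-galactose, had 82.9, 99.3, 109.5 and 104 CPM in brm-3 dog1-4, against 238, 217, 251 and 222 CPM in brm-3 and a log2 fold change of -1.24, against 0.03 without brm-3 (difference -1.27, edgeR adjusted p = 1.63e-08). The transporter gene AT1G68570 had 86.2, 82.6, 111 and 91.7 CPM in brm-3 dog1-4, against 173, 159.5, 213 and 193 CPM in brm-3, with log2 fold changes of -1.02 with brm-3 and 0.43 without it (difference -1.44, edgeR adjusted p = 4.92e-10). In AT5G39520 and UGE3 the change without brm-3 was small by comparison, and in AT1G68570 it had the opposite sign. GPX6 also fell with brm-3 and changed little without it (-1.07 and -0.07, adjusted p of the difference = 1.97e-06, edgeR). So did HTA13 (-1.38 and -0.01, edgeR adjusted p of the difference = 5.12e-05) and TIP3;1 (-0.72 and -0.02, edgeR adjusted p of the difference = 0.000738). Among increases, AT5G11420 rose by 3.91 with brm-3 and 1.04 without it (adjusted p of the difference = 0.000579, edgeR). The defensin-like gene LCR69 had 138, 150.3, 116 and 124 CPM in brm-3 dog1-4, against 53.3, 72.2, 61.5 and 59.4 CPM in brm-3, an increase of 1.11 that was smaller than the 2.38 of dog1-4 against Col-0 (adjusted p of the difference = 9.93e-06, edgeR). AT1G54410 likewise rose by less with brm-3 (2.65) than without it (5.21), where its Col-0 level was 1.11 CPM.

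Gene groups are given here in both backgrounds under TMM scaling. In dog1-4 against Col-0, 9.84% of all tested genes rose and 8.58% fell at an adjusted p under 0.05 and any fold. LEA and dehydrin genes had 25 of 31 members lower with brm-3 and 12 without it, with medians of -0.83 and -0.21, and the difference was negative for 16 members and positive for 0. Among these 16 was AT1G54410, which rose in both backgrounds, by less with brm-3 (2.65 against 5.21). For AT4G36600 the log2 fold changes were -3.18 and -1.57 (adjusted p of the difference = 1.05e-06, edgeR). In the oleosin and caleosin group 7 of 10 members fell with brm-3 and 3 without it, with a negative difference for 6; OLEO4 had -1.59 and -0.48 (edgeR adjusted p of the difference = 7.6e-06). Genes of the histone group fell in 12 and 3 of 27 members, with 6 negative differences. Ribosomal protein genes rose in 182 and 116 of 256 members, with medians of 0.74 and 0.45, and the difference was positive for 21 and negative for 3. HSP20-like genes went the other way, with 7 of 21 lower with brm-3 and 11 without it, and 5 positive differences and 1 negative one. AT2G29500 of this family had log2 fold changes of -0.90 and -2.06 (edgeR adjusted p of the difference = 0.00107). In the sulfate group 5 of 12 members fell with brm-3 and 6 without it, and 2 differences were positive. For the 13 gibberellin genes no difference passed the test: 3 rose with brm-3 and 7 without it, and the difference had an adjusted p of 0.291 for GA20OX3 and 0.365 for RGL2 (edgeR). These members and groups differ in depth and level, and a difference that did not pass the test does not show that the changes were equal.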

How the data were processed

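Dry seed RNA was profiled by 3′RNA-Seq in 16 libraries, 4 per genotype, grouped by the genotype in the labels. The authors deposited raw counts per locus for 37336 loci, and their processing notes name STAR 2.7.8a, DESeq2 and the TAIR10 genome without roles. The counting program, its strand setting and any use of molecular identifiers are not given in the sources used here. Counts were normalized by TMM and genes with low counts were removed with filterByExpr, which left 10251 genes that held 98.1% to 99.2% of the counts of a library. A robust quasi-likelihood model with 1 mean per genotype was fitted to all 16 libraries in edgeR 4.0.16 (R 4.3.3), so that all genotypes share the estimate of the spread. Contrasts with Benjamini-Hochberg adjustment were made for brm-3 dog1-4 minus brm-3, dog1-4 minus Col-0, and the difference between them. The method was also run on counts simulated from this fit, with 200 genes changed in each simulation. At an adjusted p under 0.05, 57.1% of 1.5-fold and 92.8% of 2-fold changes were found for brm-3 dog1-4 against brm-3. For the difference between backgrounds 18.5% and 67.4% were found. False calls were 5.77% and 5.92% of the calls in these 2 comparisons. The choice of scaling was not tested in this way.

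Named genes were DOG1 and BRM, the 10 largest increases and the 10 largest decreases that passed the rule given with them, the 4 members of each group with the smallest adjusted p, group members that the study names, and the genes with the clearest difference between backgrounds. Other members named in passing were chosen after their values were seen. Members and gene groups were chosen with earlier results of these data known. Gene names, positions and promoter sequences came from the TAIR10.1 annotation and genome of RefSeq. Alternatives were another normalization, library totals, other filters, thinned counts, DESeq2 1.42.0, a replicate block and leaving out each library.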

Additional observations from a re-analysis of the deposited data

Results flagged for a closer look

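Among 226 sets of 4 libraries of a tested named gene, 16 (7.08%) had 1 library far from the other 3, where chance gives about 1 in 20. In the brm-3 dog1-4 libraries the distant values were 17.35 CPM for DIP2, 4651 CPM for ICL, 28.91 CPM for GSTU9, 28.59 CPM for TCH4, 25.7 CPM for AT1G77090 and 361.8 CPM for AT1G08170. In the brm-3 libraries they were 18.43 CPM for BRM, 44.08 CPM for AGL94, 35.79 CPM for AFP1, 12.93 CPM for SOT16, 188.1 CPM for SIR, 151.6 CPM for AT1G52560, 1292 CPM for Hsp70b, 160.5 CPM for AT3G18570, 53.48 CPM for PAF1 and 4.247 CPM for PIP2A. A flagged value need not be far off in CPM: SIR had 182, 188, 182 and 180.4 CPM in the brm-3 libraries.

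For 33 named genes the change with dog1-4 differed between the brm-3 and Col-0 backgrounds at an adjusted p under 0.05 in edgeR, and the difference (brm-3 background minus Col-0 background, log2) is given for each. It was positive for AT5G11420 (2.88), AT5G01210 (1.96), AT3G45030 (1.26), AT2G29500 (1.17) and RPL16B (0.76). Among LEA, oleosin and storage genes it was negative for AT1G54410 (-2.56), AT4G36600 (-1.61), AT2G18340 (-0.85), OLEO4 (-1.10), OLEO2 (-0.68), AT5G56100 (-0.43), AT3G18570 (-0.43) and PAP85 (-0.52). Genes of redox metabolism with a negative difference were GPX6 (-1.001), GPX1 (-0.59), GSTF2 (-0.39) and AT5G44000 (-0.82). It was also negative for the histone-fold genes HTA13 (-1.37), AT3G27360 (-0.92) and AT1G08170 (-0.74). The water channel genes PIP1;4 (-1.11) and TIP3;1 (-0.70) and the wall genes XTH25 (-0.99) and XTH11 (-1.29) had a negative difference as well. PIP1;4, AT1G54410 and LCR69 rose in brm-3 dog1-4, so their negative differences mark smaller increases. The others were CYP76C2 (-1.86), AT5G39520 (-1.67), AT1G68570 (-1.44), LCR69 (-1.27), UGE3 (-1.27), GATA19 (-1.14), NCED4 (-0.89), PSB27 (-0.67) and HSP17.4 (-0.48). The cause of these differences was not tested.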

How the results depend on the processing

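Scaling had the largest effect on direction. With library totals 2397 genes were called, 2224 higher and 173 lower, 634 were called alike in both backgrounds, 869 differences were positive and 249 negative, 461 genes rose and 61 fell by more with brm-3. The direction turned for 8 named genes, with log2 fold changes of 0.0426 (GSH1), 0.00865 (ACX1), 0.0506 (HSP101), 0.46 (EXLA1), 0.22 (XTH11), 0.0692 (PSB27), 0.23 (PAC1) and 0.19 (PAF1). A further 8 named genes no longer had an adjusted p under 0.05 under that scaling, GPX1, SQE3 and NIT3 among them, and 6 gained one. At any fold 3913 genes passed (1895 higher, 2018 lower), without a filter 1832 were called (1196 higher), with at least 10 counts in every library 446 (231 higher, 215 lower; 128 alike in both backgrounds and 132 that fell by more with brm-3), and tested against a log2 fold change of 1, 395 (205 higher, 190 lower). The minimum of 10 counts removes genes nearly absent from one genotype, DOG1 included. After thinning to 803578 counts, 490 differences passed (82 positive, 408 negative), and 30 genes rose and 151 fell by more with brm-3. DESeq2 gave 91 positive differences and 32 genes that rose by more. Leaving out 1 library gave 666 to 836 genes called higher, 492 to 584 lower (836 and 584 without brm-3 dog1-4 replicate 3), 114 to 264 positive differences, 39 to 102 genes that rose by more and 189 to 296 that fell by more. Of 112 named genes besides DOG1, between 2 and 6 no longer had an adjusted p under 0.05 without any one of the 8 libraries. DOG1 stayed between -5.31 and -4.76 in those fits.

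Libraries with the same replicate number did not deviate together (correlations 0.0011 to 0.017, others -0.053 to 0.059). The replicate block gave 687 genes higher and 481 lower.

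Low depth limits genes of few counts, since 3 counts were up to 2.63 CPM. Groups of 4 libraries cannot give an exact p under 0.0286. Reads shared by near-identical genes, by overlapping genes and by antisense transcripts cannot be told apart, and seed age, plant and library batch are not in the labels.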
